A study of Mus musculus with 12 samples.

Results

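Fatty acid oxidation genes are the enzymes, carriers and regulators with which cells break down fatty acids in mitochondria and peroxisomes. The 44 genes described here were chosen by name, as rows of the deposited tables whose gene symbol is on the list, out of 27592 genes listed in the male tables and 26048 in the female tables. By where their proteins are known to act, 22 were placed in mitochondria, 10 in peroxisomes and 4 in both organelles, and 8 were uptake, cytosolic or regulatory genes. Glomeruli, the filtering units of the kidney, had been isolated by the authors from 4 groups of mice that the labels give an age of 3.5 months, while the study's supplement gives a slightly higher age for the males. The groups were male C57BL/6J wild-type mice (mWT), male Alport syndrome mice of the strain B6.Cg-Col4a5 tm1Yseg/J, labelled Col4a5-/- (mAS), female C57BL/6J wild-type mice (fWT) and heterozygous females labelled Col4a5+/- of the same Alport strain (fASht), with 3 samples listed for each. All AS animals carry this 1 allele of Col4a5, an X-linked gene for a chain of the type IV collagen of the glomerular basement membrane, and since females switch off an X chromosome at random, heterozygous females are mosaics. The labels do not say how many mice gave each sample.

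Fatty acids enter mitochondria as carnitine esters and are shortened there in repeated rounds by a dehydrogenase, a hydratase, a second dehydrogenase and a thiolase, with the electrons passed to the respiratory chain. Peroxisomes shorten very long and branched chains by a parallel set of enzymes that begins with an oxidase, and hand the products to mitochondria as carnitine esters. In the kidney the proximal tubule is known as the segment that relies most on this pathway for energy, and the nuclear receptor Ppara is known to drive many of its genes.

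Polyadenylated RNA had been sequenced as paired reads, and the values are TMM-normalized counts per gene, that is read counts that the authors scaled between libraries by a trimmed mean of ratios. The file of fWT replicate 3 equals that of fWT replicate 1 in every value, so it was counted once and fWT has 2 libraries. Column totals were 16737295 to 23182937 in mWT and 14242206 to 15379574 in mAS libraries. They were 17777238 to 20152078 in fWT and 16941020 to 17153145 in fASht libraries. In both sexes the totals of all AS libraries thus lay below those of all WT libraries. The headers of the female tables carry the prefix SE5411 for fWT and SE6183 for fASht. What the prefix stands for is not stated in the sources used here, and it cannot be told apart from genotype in females. Whether the male and the female tables were scaled together is not stated in the sources used here, so levels were tested within a sex only. Col4a5, the mutated gene, was 1209, 1854 and 1426 in mWT, 727, 674 and 572 in mAS, 2329 and 1752 in fWT and 1187, 1210.4 and 1330 in fASht libraries, lower in AS than in WT libraries of both sexes. Since the replicates are described by the labels only as samples of a group, p-values measure the spread between these samples. As a check of the labelled tissue, the 12 podocyte markers summed to 156441 to 244081 in mWT and 344891 to 438606 in mAS libraries. The 26 markers of the proximal tubule, a segment outside the glomerulus, summed to 323087 to 544278 in mWT and 51750 to 121789 in mAS libraries. In mWT the tubule sums thus exceeded the podocyte sums, and in mAS they lay below them. Podocyte sums were 300239 to 412725 in fWT and 265574 to 320813 in fASht libraries. Tubule sums were 178787 to 355669 in fWT and 200297 to 259600 in fASht libraries.

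In glomeruli of mAS mice, fatty acid oxidation genes of both organelles were lower than in mWT mice. Of the 43 members that passed the filter on low values in males, 34 (79.1%) were lower in mAS at an adjusted p under 0.05 (limma, Benjamini-Hochberg over all 15881 genes tested) and 0 were higher, where 18.9% of all genes tested were lower and 16.6% were higher. In 37 members every mAS library lay below every mWT library, against 27.2% of all genes, and in 0 members every mAS library lay above, against 26% of all genes. The median log2 fold change of the members was -1.10, and that of all genes was 0.0023. A log2 fold change here is the difference of group means of log2(value + pseudocount), where the pseudocount equals 1 CPM in an average library (17.6 in males, 17.8 in females), which understates the change of genes of low level. In the means, 23 of the 34 members that fell were below 50% of their mWT level. The member that did not pass the filter in males was Fabp1, whose values were 3.69, 1.15 and 4.85 in mWT and 2.32, 2.38 and 1.74 in mAS libraries.

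Markers of other cell types and of glomerular cells moved in the same comparison. All 26 proximal tubule markers (such as the sodium-phosphate carrier Slc34a1 and the endocytic receptor Lrp2) were lower in mAS, with log2 fold changes of -4.01 to -1.44 and a median of -2.18, and their summed level was 323087 to 544278 in mWT and 51750 to 121789 in mAS libraries. Markers of podocytes were higher for 8 of 12 genes, those of glomerular endothelium for 7 of 10, and those of the loop, distal tubule and collecting duct were lower for 7 of 14. No marker on these lists was at 0 in every library. Of mesangial markers 1 of 7 was higher and 1 lower, of macrophage markers 1 of 6 tested was lower, and of erythroid markers 0 of 5 passed the test (2 at an unadjusted p under 0.05). Adipocyte markers were at most 6.15 in sum over the 3 genes listed in both sets of tables, and 0 of them passed the filter. The summed level of the 44 members was 119062 to 190417 in mWT and 38069 to 68461 in mAS libraries. In bulk RNA, fewer cells of a type and less RNA per cell cannot be told apart. When the mean level of the proximal tubule markers was entered as a covariate, 0 of the 43 members and 0 of the 15881 genes passed the test, the median log2 fold change of the members was 0.12, and the median standard error of all genes rose from 0.171 to 0.416. Since the marker means of mAS (10.3 to 11.4 on the log2 scale) and mWT libraries (12.7 to 13.5) do not overlap, marker level and genotype cannot be told apart in males.

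**Figure D1:**
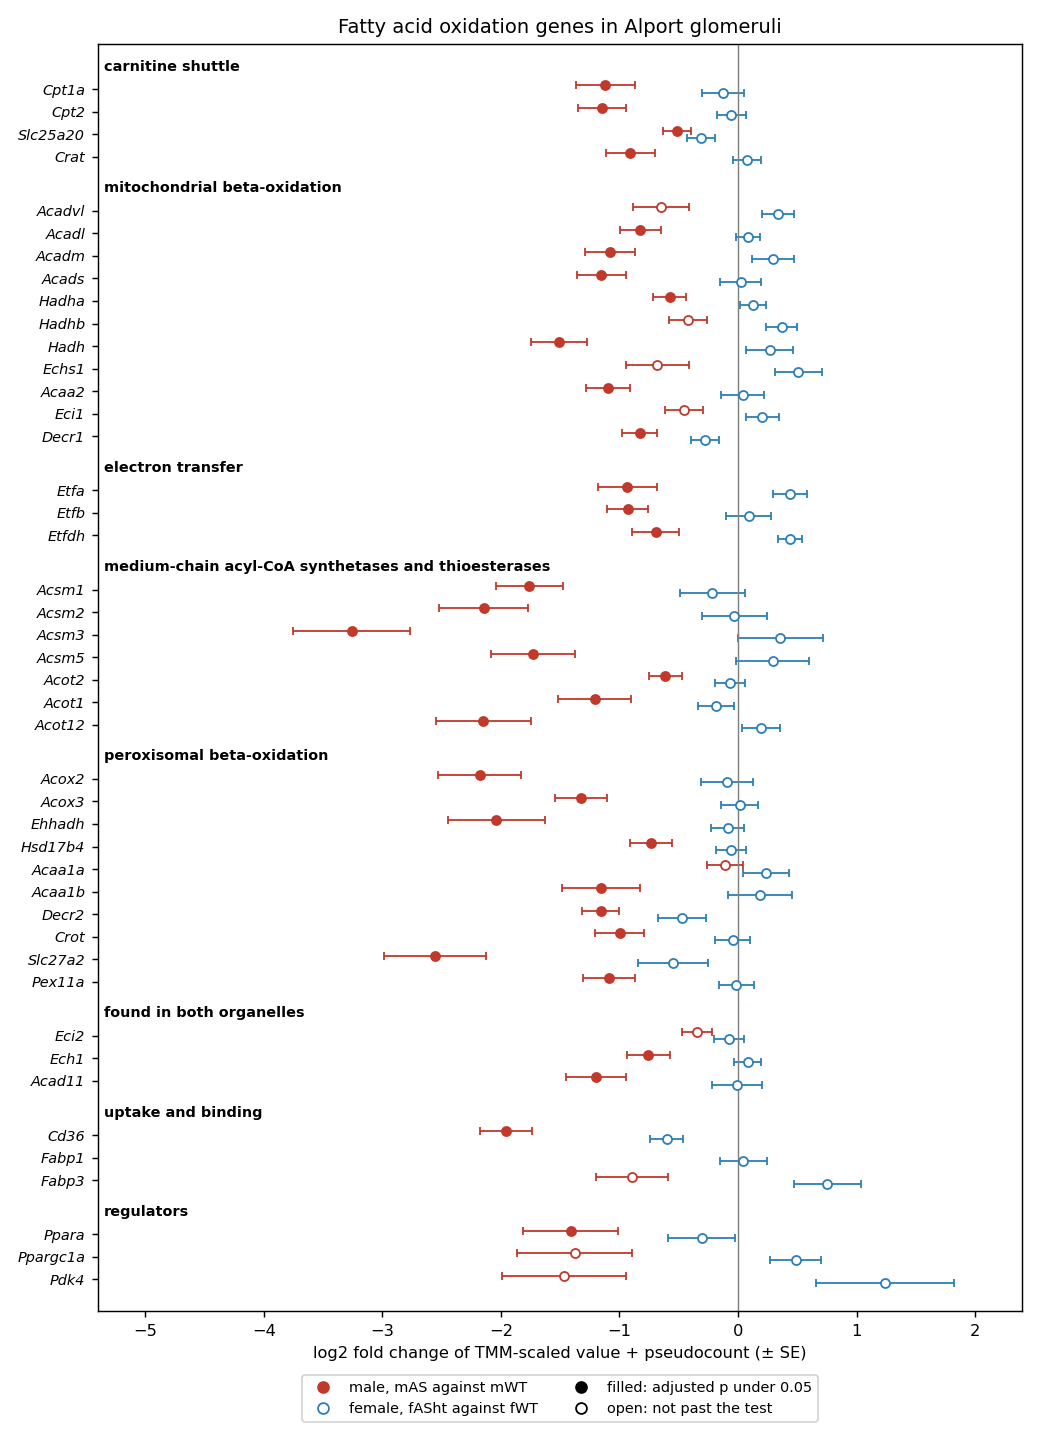
Log2 fold change of each member in AS against WT glomeruli, with its standard error, in males (red, 3 against 3 libraries) and females (blue, 3 against 2), by role. Filled circles have an adjusted p under 0.05. The male values lie below 0 for all 43 members tested, with 34 filled, and the female values lie on both sides of 0 with none filled.

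The carnitine shuttle carries long chains into mitochondria, and its 4 members were all lower in mAS. Cpt2, the carnitine palmitoyltransferase of the inner membrane, was 1381, 949 and 1577 in mWT and 648, 486 and 573 in mAS libraries, and 1004 and 1166 in fWT and 1045, 1129.6 and 952 in fASht libraries. The mAS libraries lay below all mWT libraries, at 43.7% of the mWT mean, with a male log2 fold change of -1.15 ± 0.20 (SE, adjusted p = 0.00776) and a female one of -0.056 ± 0.12 (SE, adjusted p = 0.830). Cpt1a, the carnitine palmitoyltransferase of the outer membrane that sets the rate of entry, was 8809, 6485 and 10248 in mWT and 5058, 2860.0 and 3927 in mAS libraries, and 6450.1 and 6615 in fWT and 6597, 6714 and 4817 in fASht libraries. Its mAS libraries lay below all mWT libraries and the female groups overlapped, with log2 fold changes of -1.12 ± 0.25 (SE, adjusted p = 0.0137) in males and -0.13 ± 0.18 (SE, adjusted p = 0.715) in females. Crat, a carnitine acetyltransferase of both organelles, was 2050.3, 1266 and 1946 in mWT and 1067, 767 and 905 in mAS libraries, and 1199 and 1445 in fWT and 1338, 1439 and 1400.0 in fASht libraries, and its male log2 fold change was -0.91 ± 0.21 (SE, adjusted p = 0.0150) against 0.079 ± 0.12 (SE, adjusted p = 0.742) in females. Slc25a20, the carrier that exchanges acylcarnitine for carnitine, fell least in males, at -0.51 ± 0.12 (SE, adjusted p = 0.0152), and was also below fWT in all 3 fASht libraries, at -0.31 ± 0.12 (SE, adjusted p = 0.195), which did not pass the test.

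Of the 11 enzymes of mitochondrial beta-oxidation, 7 were lower in mAS. Hadh, the short-chain hydroxyacyl-CoA dehydrogenase, was 6989, 5009 and 6744 in mWT and 2756, 1525 and 2402 in mAS libraries, and 3086 and 4832 in fWT and 4615, 4288 and 5071 in fASht libraries. Its mAS libraries lay below all mWT libraries at 35.7% of the mWT mean, and the male log2 fold change of -1.51 ± 0.24 (SE, adjusted p = 0.00629) was the lowest of this role. Acaa2, the mitochondrial ketoacyl-CoA thiolase of the last step, was 2566, 2013 and 3116 in mWT and 1273, 978 and 1281 in mAS libraries, and 1996 and 3028 in fWT and 2422, 2482 and 2687 in fASht libraries, and the groups overlapped in females alone, with -1.10 ± 0.19 (SE, adjusted p = 0.00711) in males and 0.039 ± 0.18 (SE, adjusted p = 0.922) in females.

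The 4 chain-length specific acyl-CoA dehydrogenases catalyse the first step. Acads, for short chains, was 1306, 1482 and 2049 in mWT and 879.9, 571 and 691 in mAS libraries, and 941 and 1408 in fWT and 1134, 1144 and 1236 in fASht libraries. Its log2 fold change was -1.15 ± 0.21 (SE, adjusted p = 0.00828) in males and 0.023 ± 0.17 (SE, adjusted p = 0.956) in females. Acadm, for medium chains, was 4402, 3411 and 5077 in mWT and 2506, 1536 and 2068 in mAS libraries, and 2555 and 3622 in fWT and 3494, 3491 and 4273 in fASht libraries, with -1.08 ± 0.21 (SE, adjusted p = 0.0102) in males and 0.29 ± 0.18 (SE, adjusted p = 0.381) in females. Acadl, for long chains, was 3103, 2154 and 2898 in mWT and 1716, 1323 and 1517 in mAS libraries, and 2059.8 and 2162 in fWT and 2218, 2223 and 2291 in fASht libraries, and its values were -0.82 ± 0.17 (SE, adjusted p = 0.0113) in males and 0.088 ± 0.10 (SE, adjusted p = 0.652) in females. In each of these 3 genes the mAS libraries did not overlap with the mWT libraries. Acadvl, for very long chains, was 1655, 1777 and 2662 in mWT and 1629, 970.0 and 1258 in mAS libraries, and 1560.4 and 1901 in fWT and 2099, 2074 and 2383 in fASht libraries. Its highest mAS library lay just below its lowest mWT library, and the male log2 fold change of -0.65 ± 0.24 (SE, adjusted p = 0.0630) did not pass the test, while all fASht libraries lay above fWT at 0.34 ± 0.13 (SE, adjusted p = 0.199).

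The trifunctional protein of the inner membrane is built of Hadha and Hadhb, whose genes lie head to head on chromosome 5 of GRCm38 with annotated starts 86 bases apart. Hadha, the alpha subunit, was 4015, 3291 and 4170.2 in mWT and 2844, 2375 and 2448 in mAS libraries, and 3211 and 3573 in fWT and 3743, 3695 and 3663 in fASht libraries, and Hadhb, the beta subunit, was 1212, 1034 and 1398 in mWT and 1070.1, 825 and 812 in mAS libraries, and 866 and 1098 in fWT and 1276, 1223 and 1292 in fASht libraries. Only Hadha of this pair passed the test in males, with -0.58 ± 0.14 (SE, adjusted p = 0.0187) against -0.42 ± 0.16 (SE, adjusted p = 0.0722) for Hadhb, which is no test of a difference between the subunits. In females every fASht library lay above every fWT library for both subunits, at 0.13 for Hadha and 0.37 for Hadhb, and neither passed (adjusted p = 0.543 and 0.167 by limma). Echs1, the short-chain enoyl-CoA hydratase, was 1309, 1644 and 2253 in mWT and 1458, 778 and 1020.4 in mAS libraries, and 1037 and 1642 in fWT and 1756, 1795 and 2060.4 in fASht libraries. Its male groups overlapped, with -0.68 ± 0.26 (SE, adjusted p = 0.0766), and its female groups did not, with 0.51 ± 0.20 (SE, adjusted p = 0.197). Decr1, the dienoyl-CoA reductase for polyunsaturated chains, was lower in mAS at -0.83 ± 0.15 (SE, adjusted p = 0.00799), and Eci1, the isomerase for unsaturated chains, was -0.46 ± 0.16 (SE, adjusted p = 0.0597).

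The electrons from these dehydrogenases pass through the electron transfer flavoprotein and Etfdh, and the 3 genes of this step all fell in mAS. Etfb, its beta subunit, was 2952, 2037 and 2635 in mWT and 1496, 1113 and 1348 in mAS libraries, and 1598 and 2312 in fWT and 1838, 1959 and 2379 in fASht libraries, which gave -0.93 ± 0.17 (SE, adjusted p = 0.00874) in males and 0.089 ± 0.19 (SE, adjusted p = 0.819) in females. Etfa, its alpha subunit, was 2124, 1747 and 2559.8 in mWT and 1525, 774 and 1129 in mAS libraries, and 1267 and 1698 in fWT and 1929, 1931 and 2126 in fASht libraries. Every mAS library lay below mWT and every fASht library above fWT, with -0.93 ± 0.25 (SE, adjusted p = 0.0242) in males and 0.44 ± 0.15 (SE, adjusted p = 0.154) in females. Etfdh, which hands the electrons to ubiquinone, was 1625, 1393 and 1984 in mWT and 1270.2, 802 and 1017 in mAS libraries, and 1205 and 1284 in fWT and 1680.1, 1758 and 1632 in fASht libraries. Etfdh had the lowest p of all members in females, and its log2 fold changes were -0.70 ± 0.20 (SE, adjusted p = 0.0292) in males and 0.44 ± 0.10 (SE, adjusted p = 0.0849) in females.

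All 7 medium-chain acyl-CoA synthetases and thioesterases were lower in mAS. The synthetases activate medium-chain acids for oxidation or conjugation. Acsm3 (chromosome 7, 119760923 to 119787513, GRCm38) was 3584, 2336 and 3647 in mWT and 677, 130.3 and 329 in mAS libraries, and 29.0 and 36.0 in fWT and 20.4, 56.9 and 75.6 in fASht libraries. The mAS mean was 11.9% of the mWT mean, the male log2 fold change of -3.26 ± 0.49 (SE, adjusted p = 0.00603) was the lowest of all members, and the female groups overlapped at values far below those of mWT. This sex difference of Acsm3 is given as values with no test. Acsm1 was 1283, 763 and 1419 in mWT and 364, 218 and 399 in mAS libraries, and 946 and 1772 in fWT and 890.0, 1216 and 1268 in fASht libraries, and fell to 28.3% of the mWT mean at -1.76 ± 0.29 (SE, adjusted p = 0.00660). Acsm2, the member with the highest values, was 65485, 38236 and 65864 in mWT and 16574, 7347 and 15605 in mAS libraries, and 13952 and 25505 in fWT and 17337, 18542 and 19634 in fASht libraries. In mAS it stood at 23.3% of the mWT mean, with -2.14 ± 0.38 (SE, adjusted p = 0.00771), and in females the groups overlapped at -0.030 ± 0.27 (SE, adjusted p = 0.965). Acsm5 was 469.8, 324 and 656 in mWT and 202, 73.0 and 137 in mAS libraries, and 232 and 498 in fWT and 375, 379 and 526 in fASht libraries, with -1.73 ± 0.35 (SE, adjusted p = 0.0109) in males. These 4 genes lie between 119519463 and 119787513 of chromosome 7. Acsm1 ends at 119662515 and Acsm3 starts further on, at 119760923. Reads that fit more than 1 of these related genes could have been split in counting. Values of single Acsm genes are uncertain to that extent. The thioesterases, which release the free acid from CoA, also fell. Acot12, a cytosolic enzyme for acetyl-CoA, was 1263, 727 and 1377 in mWT and 334, 114 and 312 in mAS libraries, and 403 and 480.3 in fWT and 423, 525 and 582 in fASht libraries, with -2.15 ± 0.40 (SE, adjusted p = 0.00862). Acot1, which is cytosolic, was -1.21 ± 0.31 (SE, adjusted p = 0.0208), and Acot2, which is mitochondrial, was -0.61 ± 0.14 (SE, adjusted p = 0.0140) in males. These are near-identical neighbours on chromosome 12 with the same uncertainty.

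**Figure D2:**
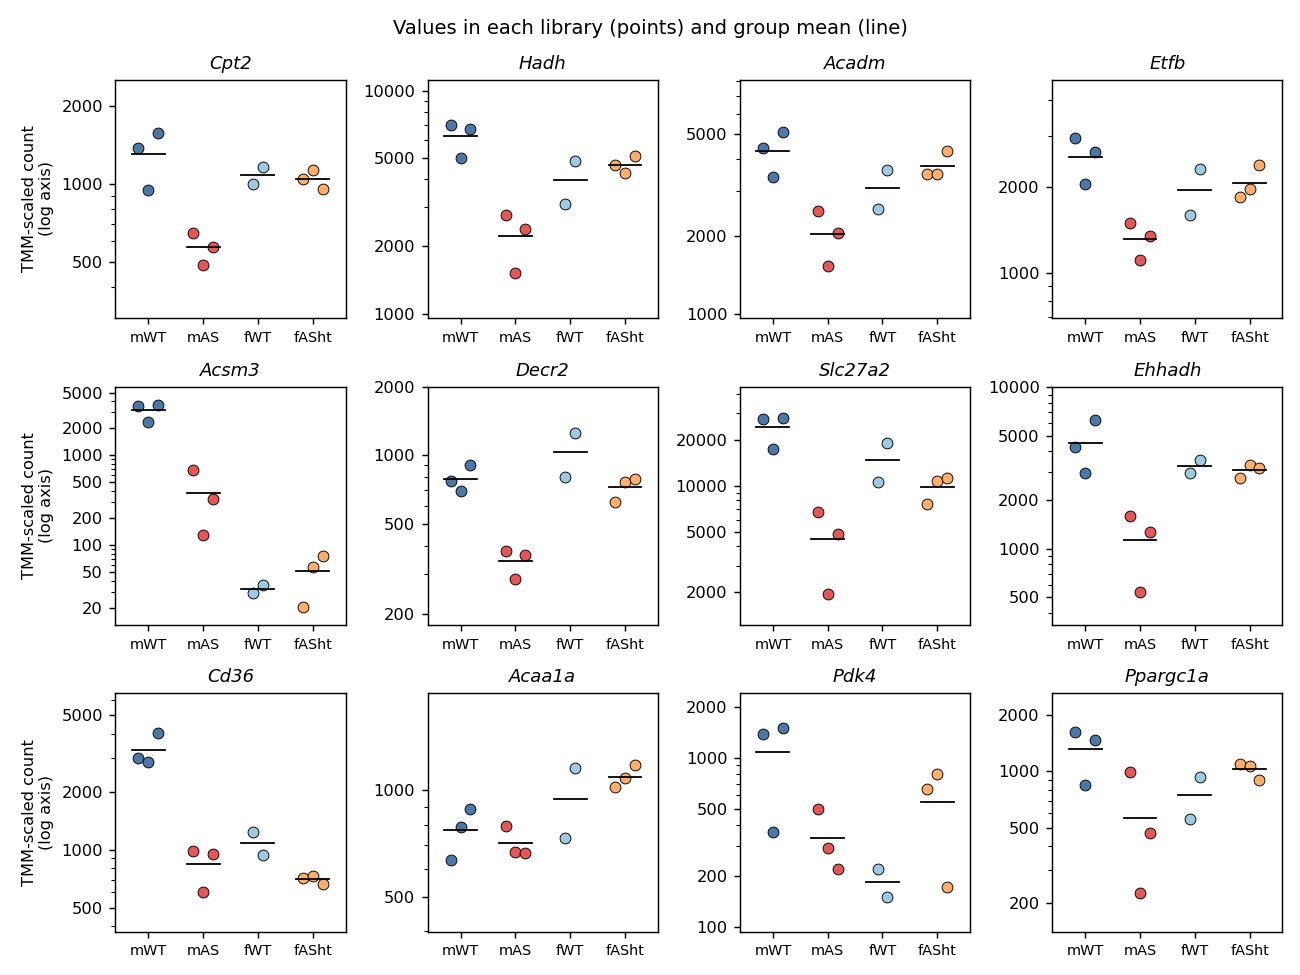
TMM-normalized counts of 12 members in each of the 11 libraries (points) with group means (lines), on log axes that differ between panels. The mAS points lie below all mWT points in the panels of Cpt2, Hadh, Acadm, Etfb, Acsm3, Decr2, Slc27a2, Ehhadh and Cd36, and overlap with mWT in those of Acaa1a, Pdk4 and Ppargc1a.

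Of the 10 peroxisomal members, 9 were lower in mAS. Decr2, the dienoyl-CoA reductase of peroxisomes, was 766, 696 and 904 in mWT and 379.5, 286 and 365 in mAS libraries, and 802 and 1251 in fWT and 624, 758 and 784 in fASht libraries. It had the lowest male p of this role with -1.16 ± 0.16 (SE, adjusted p = 0.00494), and all fASht libraries also lay below fWT, at -0.47 ± 0.20 (SE, adjusted p = 0.235). Slc27a2, a very long-chain acyl-CoA synthetase that also imports fatty acids (chromosome 2, 126552407 to 126588243), was 27158, 17288 and 27821 in mWT and 6670.2, 1959 and 4849.7 in mAS libraries, and 10579.6 and 19017 in fWT and 7533, 10684 and 11299 in fASht libraries. The mAS mean of Slc27a2 was 18.7% of the mWT mean, with -2.56 ± 0.43 (SE, adjusted p = 0.00700), the second lowest value among all members, and the female log2 fold change was -0.55 ± 0.29 (SE, adjusted p = 0.318).

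The first step in peroxisomes is catalysed by acyl-CoA oxidases. Acox2, which acts on branched chains and bile acid intermediates, was 371, 211 and 408 in mWT and 86.7, 27.8 and 68.7 in mAS libraries, and 238 and 372 in fWT and 234, 276 and 332 in fASht libraries. It fell to 18.5% of the mWT mean, with -2.18 ± 0.35 (SE, adjusted p = 0.00659) in males and -0.093 ± 0.22 (SE, adjusted p = 0.843) in females. Acox3, for branched chains, was 2711, 1986 and 3464 in mWT and 1209.6, 859 and 1112 in mAS libraries, and 1071 and 1406 in fWT and 1107, 1229.6 and 1400.0 in fASht libraries, with -1.32 ± 0.22 (SE, adjusted p = 0.00684) in males and 0.014 ± 0.16 (SE, adjusted p = 0.971) in females. For the steps that follow, Ehhadh, the L-bifunctional enzyme, was 4258, 2957 and 6302 in mWT and 1599, 540.4 and 1269 in mAS libraries, and 2958 and 3548 in fWT and 2740.2, 3279 and 3149.5 in fASht libraries. The mAS libraries lay below all mWT libraries, mAS replicate 2 lowest, and the log2 fold changes were -2.04 ± 0.41 (SE, adjusted p = 0.0107) in males and -0.088 ± 0.14 (SE, adjusted p = 0.754) in females. Hsd17b4, the D-bifunctional enzyme that carries the same steps for branched chains, was -0.73 ± 0.18 (SE, adjusted p = 0.0189) in males and -0.058 in females.

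The last step is that of the peroxisomal thiolases, where the 2 mouse genes differed in their calls. Acaa1a was 636, 788 and 888 in mWT and 791, 667 and 663 in mAS libraries, so that the groups overlapped, and its log2 fold change of -0.11 ± 0.15 (SE, adjusted p = 0.582) was the closest to 0 of all members. Acaa1b was 706, 429 and 883 in mWT and 378, 176 and 326 in mAS libraries, which did not overlap, at -1.16 ± 0.33 (SE, adjusted p = 0.0294). The 2 genes are near-identical and lie on chromosome 9, so reads could have been assigned to either, and the difference between them was not tested. In females Acaa1a was 0.24 and Acaa1b 0.19. Crot, the carnitine octanoyltransferase that exports shortened chains, was 1849.9, 1662 and 2435 in mWT and 1173, 748 and 1041 in mAS libraries, and 1479.9 and 1992 in fWT and 1681, 1584 and 1732 in fASht libraries, with -0.999 ± 0.20 (SE, adjusted p = 0.0109) in males and -0.045 ± 0.15 (SE, adjusted p = 0.889) in females. Pex11a, a membrane protein of peroxisome division, was 438, 314 and 488 in mWT and 225, 138 and 192 in mAS libraries, and 299 and 367 in fWT and 294, 347 and 347 in fASht libraries, with -1.09 ± 0.22 (SE, adjusted p = 0.0106) in males and -0.013 ± 0.14 (SE, adjusted p = 0.972) in females. In both genes the mAS libraries lay below all mWT libraries and the female groups overlapped.

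Among enzymes found in both organelles, Acad11, an acyl-CoA dehydrogenase family member, was 2427, 1965 and 3451 in mWT and 1385, 809.9 and 1191 in mAS libraries, and 1899 and 3177 in fWT and 2345, 2346 and 2648 in fASht libraries. Its male log2 fold change was -1.19 ± 0.25 (SE, adjusted p = 0.0120), and its female groups overlapped at -0.0082 ± 0.21 (SE, adjusted p = 0.989). Ech1, a dienoyl-CoA isomerase, was 1983, 2189 and 3029 in mWT and 1611, 1224 and 1361 in mAS libraries, and 1892 and 2184 in fWT and 2042, 2181 and 2244 in fASht libraries, with -0.76 ± 0.18 (SE, adjusted p = 0.0180) in males and 0.083 ± 0.12 (SE, adjusted p = 0.718) in females. Eci2, an enoyl-CoA isomerase, was below mWT in all 3 mAS libraries at -0.35 ± 0.13 (SE, adjusted p = 0.0646), which did not pass the test, and -0.077 in females.

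The comparison of organelles in males gave 18 of 22 mitochondrial members lower (81.8%) and 9 of 10 peroxisomal members lower (90.0%), with 0 higher in either. The median log2 fold change was -0.93 for mitochondrial members, ranging from -3.26 to -0.42, and -1.16 for peroxisomal members, ranging from -2.56 to -0.11, so that the ranges overlapped. By role the medians were -0.82 for beta-oxidation enzymes and -0.93 for electron transfer, and -1.76 for the synthetases and thioesterases, 2 of which are cytosolic. Per library, the mean log2 value of mitochondrial members exceeded that of peroxisomal members by 0.47, 0.53 and 0.39 in mWT and by 0.66, 0.83 and 0.62 in mAS. The same gap was 0.13 and 0.036 in fWT and 0.39, 0.29 and 0.21 in fASht. In both sexes each AS library therefore had a wider gap than each WT library, by 0.24 in the male means and 0.21 in the female means, and no p is given for these scores over chosen members. In the fit that holds the tubule marker level fixed, the male difference of the gap was -0.12, of the opposite sign. The female difference was 0.19, of the same sign. Marker level and genotype cannot be told apart in males, so the male sign in that fit decides nothing. The markers themselves averaged 13.2, 12.7 and 13.5 in mWT, 11.4, 10.3 and 11.4 in mAS, 12.0 and 13.0 in fWT and 12.1, 12.3 and 12.6 in fASht libraries on the log2 scale, and their part in the members' values was not tested beyond that fit. Between mWT and mAS the mean log2 value of the members differed by -1.19 and that of the markers by -2.15. Of the 43 members, 2 had a lower log2 fold change than the median marker and 32 a higher one than every marker.

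**Figure D3:**
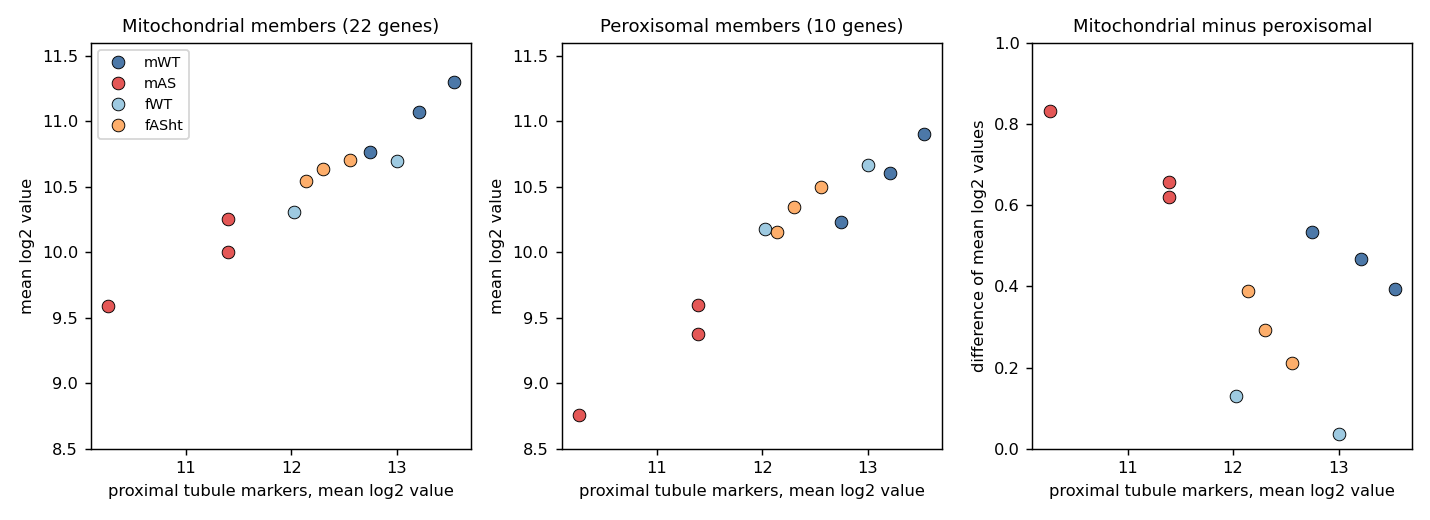
Mean log2 value of the 22 mitochondrial members, of the 10 peroxisomal members and their difference in each of the 11 libraries, plotted against the average log2 level of the 24 proximal tubule markers tested in both sexes. The mAS libraries hold the lowest members and markers, and the gap between the organelles is widest there (0.62 to 0.83).

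Of the genes for uptake, binding and regulation, Cd36 had the lowest male p. Cd36, the fatty acid translocase of the plasma membrane (chromosome 5, 17781690 to 17888801), was 2973, 2860.2 and 4044 in mWT and 984, 599.9 and 947 in mAS libraries, and 1236 and 936 in fWT and 716, 728 and 665 in fASht libraries. This was also the lowest male p of all members, with -1.96 ± 0.22 (SE, adjusted p = 0.00392), and fASht also lay below fWT in every library, at -0.60 ± 0.14 (SE, adjusted p = 0.0849). Fabp3, the heart-type fatty acid binding protein, was 599, 458 and 675 in mWT and 479.9, 188 and 293 in mAS libraries, and 206 and 424 in fWT and 615, 457 and 478 in fASht libraries. Its male groups overlapped with -0.89 ± 0.31 (SE, adjusted p = 0.0538), and its fASht libraries all lay above fWT with 0.75 ± 0.29 (SE, adjusted p = 0.191). Fabp1, the liver-type protein, was 13.1 and 26.0 in fWT and 17.5, 20.9 and 22.2 in fASht libraries, close to the filter, and its female log2 fold change was 0.045 ± 0.20 (SE, adjusted p = 0.918).

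Of the regulators, Ppara was 266, 274 and 684 in mWT and 175, 75.4 and 154 in mAS libraries, and 364 and 601 in fWT and 288, 517 and 355 in fASht libraries, and fell in males with -1.41 ± 0.40 (SE, adjusted p = 0.0302). mWT replicate 3 held a value over 2 times that of the other mWT libraries. Ppargc1a, a coactivator that raises mitochondrial gene transcription, was 1626, 842 and 1475 in mWT and 999, 225 and 471 in mAS libraries, and 559 and 938 in fWT and 1102, 1069 and 905 in fASht libraries. Its groups overlapped in both sexes, with -1.38 ± 0.48 (SE, adjusted p = 0.0580) in males and 0.49 ± 0.22 (SE, adjusted p = 0.248) in females. Pdk4, a kinase that switches mitochondria from glucose to fatty acids, was 1370.2, 365 and 1497 in mWT and 499.6, 293 and 220.1 in mAS libraries, and 220.5 and 150.3 in fWT and 656, 805 and 173 in fASht libraries. The spread within groups was wide, and neither -1.47 ± 0.52 (SE, adjusted p = 0.0610) in males nor 1.24 ± 0.59 (SE, adjusted p = 0.270) in females passed the test.

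The promoters of the members were read from RefSeq windows of GRCm38.p6, from 250 bases before to 50 bases after a gene's start, to show the sequence next to the genes with the lowest male p among mitochondrial, peroxisomal and other members. Windows were given for 40 of the 44 members. Ppara acts with its partner at pairs of a hexamer that face the same way with 1 base between, and these were searched as AGGNCA on both strands, with any base at N. The pair was found in the windows of 1 member, Fabp1 (2.50%), and of 0.451% of all 27025 genes in the table. The single hexamer AGGTCA on either strand, a search chosen after the windows had been seen and overlapping with the first, was found for 9 of the 40 members (22.5%) and 18.1% of all genes, with 5 of 20 mitochondrial and 1 of 9 peroxisomal members. A match of letters is not a binding site. In the promoters below capitals mark AGGTCA or its reverse complement, of which Acsm3 and Decr2 hold none. In the Fabp1 stretch they mark the pair, which is on the reverse strand 67 to 55 bases before the RefSeq start. The RefSeq starts used for Decr2, Cd36 and Fabp1 lie within the genes as placed by GENCODE. Positions in these windows are therefore relative to the RefSeq start.
Acsm3 promoter, chr7:119760673-119760972, plus strand: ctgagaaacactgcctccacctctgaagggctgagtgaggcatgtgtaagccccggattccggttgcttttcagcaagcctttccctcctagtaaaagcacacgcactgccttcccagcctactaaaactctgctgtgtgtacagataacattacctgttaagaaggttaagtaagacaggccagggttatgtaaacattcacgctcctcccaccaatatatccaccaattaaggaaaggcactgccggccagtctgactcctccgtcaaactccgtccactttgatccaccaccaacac
Decr2 promoter, chr17:26090115-26090414, minus strand: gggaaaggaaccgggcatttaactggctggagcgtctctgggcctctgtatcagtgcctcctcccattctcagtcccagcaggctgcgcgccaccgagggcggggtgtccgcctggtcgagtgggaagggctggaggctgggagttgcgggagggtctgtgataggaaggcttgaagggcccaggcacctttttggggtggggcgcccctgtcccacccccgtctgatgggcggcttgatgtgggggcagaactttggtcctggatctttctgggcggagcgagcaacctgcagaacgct
Cd36 promoter, a RefSeq start within the gene, chr5:17835847-17836146, minus strand: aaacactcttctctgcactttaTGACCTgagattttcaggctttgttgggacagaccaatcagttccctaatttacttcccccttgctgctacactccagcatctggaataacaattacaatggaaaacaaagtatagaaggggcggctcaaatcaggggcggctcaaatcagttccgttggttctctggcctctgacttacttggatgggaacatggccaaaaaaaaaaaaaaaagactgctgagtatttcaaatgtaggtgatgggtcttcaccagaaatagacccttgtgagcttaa
Fabp1 stretch, chr6:71199803-71199832, plus strand: gacaatcacTGACCTATGGCCTatatctga

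In heterozygous females 0 of the 44 members passed the test in either direction by limma, where 0.348% of 15803 genes tested were lower and 1.06% were higher. At an unadjusted p under 0.05 there were 8 members, against 3449 of the 15803 genes, and these were Etfdh, Cd36, Etfa, Hadhb, Fabp3, Slc25a20, Echs1 and Acadvl. Every fASht library lay below both fWT libraries for 4 members, against 21.3% of all genes, and above them for 8 members, against 19.1% of all genes. The former were Slc25a20, Decr1, Decr2 and Cd36, with female log2 fold changes of -0.31, -0.28, -0.47 and -0.60. The latter were 5 enzymes of mitochondrial beta-oxidation (Acadvl, Acadl, Hadha, Hadhb and Echs1), Etfa, Etfdh and Fabp3, with log2 fold changes from 0.088 to 0.75. The median log2 fold change was 0.042 over all members, 0.11 over mitochondrial and -0.051 over peroxisomal members, and -0.0091 over all genes. Female log2 fold changes not yet given were -0.22 for Acsm1, 0.29 for Acsm5, -0.19 for Acot1, -0.070 for Acot2, 0.19 for Acot12, 0.36 for Acsm3 and 0.21 for Eci1. The proximal tubule markers were past the test for 0 of 24 genes in females (0 at an unadjusted p under 0.05), with a summed level of 178787 to 355669 in fWT and 200297 to 259600 in fASht libraries, and 4 of 14 markers of the loop, distal tubule and collecting duct were higher. The 2 fWT libraries differed more in these markers than the groups did. Without fWT replicate 2 the median log2 fold change of the members was 0.27, and without fWT replicate 1 it was -0.16. The median over all genes was -0.016 and -0.0060 in these fits. The female result therefore rests on which fWT library is used.

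Whether the change differed between the sexes was tested by the interaction of sex and genotype over all 11 libraries. The mAS males are labelled Col4a5-/- and the fASht females Col4a5+/-, so sex and mutant dose cannot be told apart in this test. The header prefix that differs between the female groups enters it as well. The male change was lower than the female change for 29 of 44 members and higher for 0, where 12.1% of 16506 genes tested were lower and 9.66% were higher. By organelle these were 17 of 22 mitochondrial, 6 of 10 peroxisomal and 3 of 4 members found in both organelles, and 3 of the 8 others. The difference of the log2 fold changes was -3.62 ± 0.72 (SE, adjusted p = 0.0199) for Acsm3, -1.77 ± 0.35 (SE, adjusted p = 0.0196) for Hadh and -1.35 ± 0.29 (SE, adjusted p = 0.0217) for Cd36. It was -1.13 ± 0.25 (SE, adjusted p = 0.0221) for Etfdh, -1.37 ± 0.31 (SE, adjusted p = 0.0226) for Acadm and -2.08 ± 0.48 (SE, adjusted p = 0.0232) for Acox2. Acsm3 was 20.4 to 75.6 in the female libraries, close to the pseudocount of 17.8, which understates its female change. The adjusted p of the 29 members ran from 0.0196 (Hadh) to 0.0447 (Echs1) by limma. Several members passed this test without passing in males alone, namely Acadvl, Hadhb, Echs1 and Fabp3. The difference was -0.99 ± 0.31 (SE, adjusted p = 0.0433) for Acadvl, -0.79 ± 0.22 (SE, adjusted p = 0.0323) for Hadhb, -1.19 ± 0.38 (SE, adjusted p = 0.0447) for Echs1 and -1.65 ± 0.47 (SE, adjusted p = 0.0350) for Fabp3. In these 4 genes the male value was below 0 and the female value above 0. Decr2, Decr1 and Slc25a20, which were also below fWT in every fASht library, did not pass this test, at -0.69 ± 0.27 (SE, adjusted p = 0.0834), -0.55 ± 0.20 (SE, adjusted p = 0.0650) and -0.20 ± 0.16 (SE, adjusted p = 0.392). This test leans on single libraries, since the count was 1 without mWT replicate 3 and 3 without mWT replicate 1. It was 37 without mWT replicate 2, where 2655 of 16453 genes were lower and 2200 higher. It was 35 without mAS replicate 1, where 2495 of 16389 genes were lower and 1740 higher. Leaving out a fWT library leaves 1 library in that group, so those counts are not given here. Further counts were 5 without fASht replicate 3, 9 without fASht replicate 2, 17 without fASht replicate 1 and 14 without mAS replicate 2 or mAS replicate 3. Over all genes, lower calls were 389 of 16392, 522 of 16418, 916 of 16392, 895 of 16343 and 764 of 16388 in these fits. Higher calls were 376, 570, 703, 652 and 559. Without mWT replicate 1, 244 of 16461 genes were lower and 341 higher. Without mWT replicate 3, 168 of 16465 genes were lower and 205 higher.

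**Figure D4:**
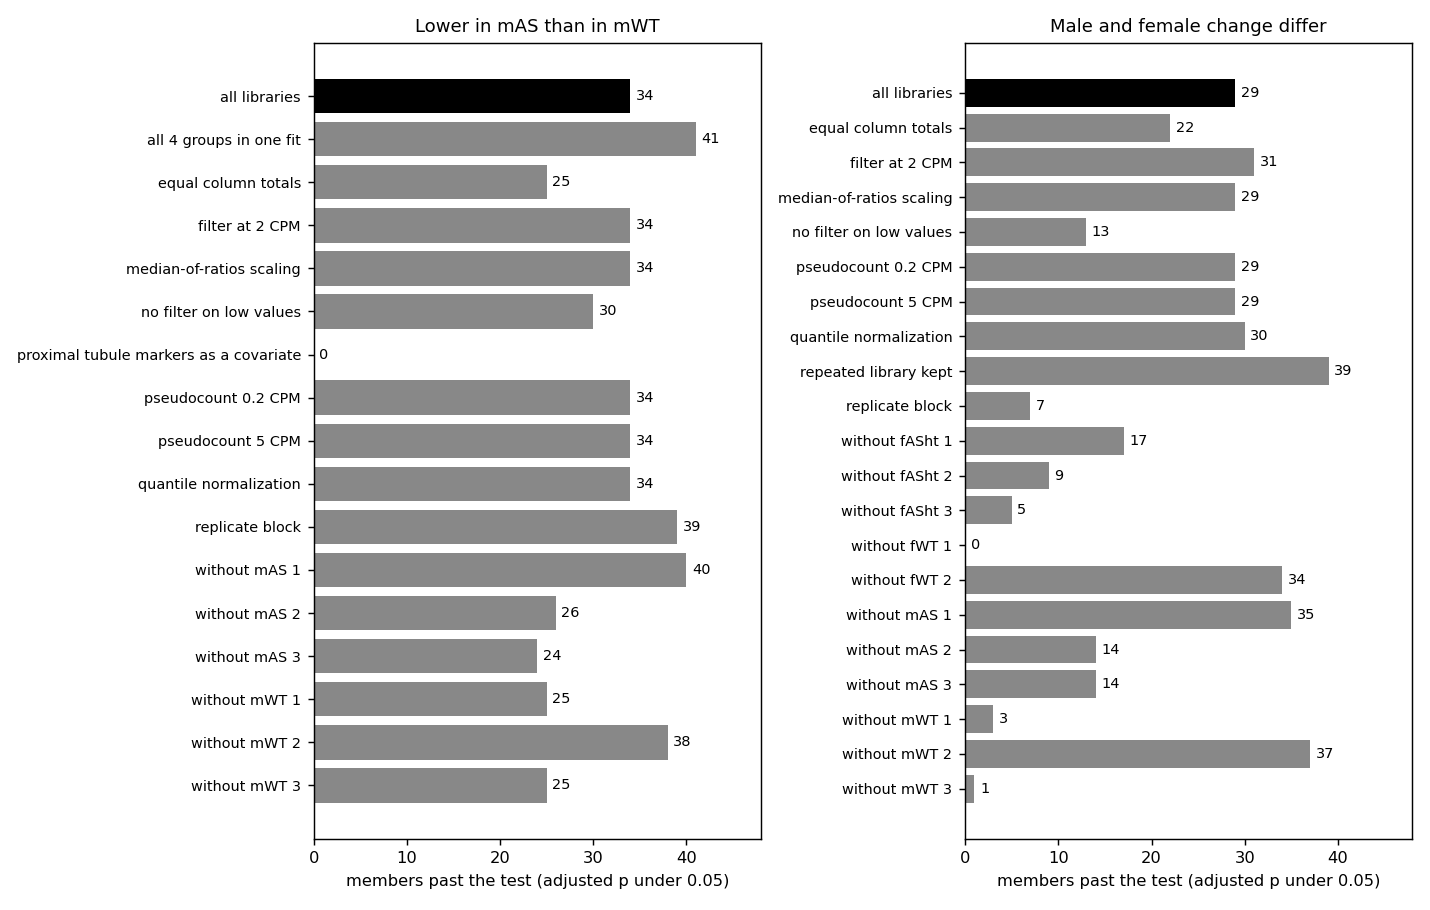
Number of members past the test with all libraries (black) and under each other setting at the same threshold (grey), for lower values in mAS than in mWT (left) and for a difference between the male and the female change (right), with 43 or 44 members tested. The left bars run from 0, with the tubule marker level as a covariate, to 41, with all groups in 1 fit. In that 1 fit 3698 of 16506 genes were lower and 3304 higher. The longest right bar, at 39, is the fit that counts the repeated library as a separate one. In it 3144 of 16548 genes were lower and 2676 higher. Bars without a fWT library rest on 1 library in that group.

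In males the count of lower members was 24 without mAS replicate 3, 25 without mWT replicate 1 or mWT replicate 3, and 26 without mAS replicate 2. Over all genes, lower calls were 1489 of 15422, 1593 of 15764, 1432 of 15750 and 1760 of 15398 in these fits, in that order. Higher calls over all genes were 999, 1450, 1354 and 1232. The member count was 38 without mWT replicate 2 (3058 of 15723 genes lower, 2820 higher). It was 40 without mAS replicate 1 (2989 of 15426 genes lower, 2208 higher). In each of these 6 fits, 23 of the 34 members were lower, namely 13 mitochondrial, 7 peroxisomal, 1 of both organelles and 2 others. The mitochondrial ones were Cpt2, Acadl, Acadm, Acads, Hadh, Acaa2, Decr1, Etfb, Acot2 and the 4 Acsm genes, and the peroxisomal ones were Acox2, Acox3, Ehhadh, Decr2, Crot, Slc27a2 and Pex11a. With columns scaled to equal totals, which put the median of all genes at 0.36, the counts were 25 members lower and 0 higher. In that fit 1420 of 15881 genes were lower and 5292 higher, and Acaa1a and Eci2 changed sign.

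A second list of 47 genes of the same pathway, which holds none of the members, was read in the same fits. In males 30 of 45 tested (66.7%) were lower and 0 higher, against 18.9% and 16.6% of all genes, with a median log2 fold change of -0.85. Among the lowest p were those of Nudt19, a peroxisomal CoA hydrolase, and Slc22a5, the carnitine importer. Nudt19 was 4681, 4223 and 5717 in mWT and 1583, 730.2 and 1200.1 in mAS libraries, and 1068 and 1768 in fWT and 1065, 1109 and 1301 in fASht libraries, with -2.10 ± 0.27 (SE, adjusted p = 0.00435) in males, and lay below mWT in every mAS library. Slc22a5 was -1.43 ± 0.26 (SE, adjusted p = 0.00800) in males. In females 1 gene was higher, Cpt1b, the muscle-type carnitine palmitoyltransferase, which is named for being the only call. Cpt1b was 353, 262 and 492 in mWT and 349, 110.3 and 157 in mAS libraries, and 78.1 and 128 in fWT and 314, 315 and 231 in fASht libraries, with 1.35 ± 0.22 (SE, adjusted p = 0.0458) in females and -0.90 ± 0.39 (SE, adjusted p = 0.102) in males.

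Peroxisome assembly genes, which import proteins into peroxisomes or build and divide them, were read as another list. Of 17 genes, 3 were lower in mAS (17.6%) and 0 higher, a share close to the 18.9% of all genes, and the median log2 fold change was -0.33. The lowest p were those of Pxmp4, Pex11g, Pex13 and Pex3. Pxmp4 was -0.65 ± 0.15 (SE, adjusted p = 0.0143) and Pex11g -0.61 ± 0.18 (SE, adjusted p = 0.0318), both peroxisomal membrane proteins. Pex13, which serves protein import, was -0.53 ± 0.17 (SE, adjusted p = 0.0472), and Pex3, which serves membrane assembly, was -0.33 ± 0.11 (SE, adjusted p = 0.0549). In females 0 of 17 passed (1 at an unadjusted p under 0.05).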

How the data were processed

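Glomerular RNA of 12 samples in 4 groups was sequenced by the authors, and 11 distinct libraries remained after 1 repeated female library was counted once. According to the authors' records, FastQC, cutadapt, STAR (mm10) and Partek were used (versions not given in the sources used here). Per gene, the deposited signal is a read count that the authors scaled by TMM, in 1 table per sample. About 77% to 81% of low values (above 0 and under 30) were within 0.01 of a whole multiple of the library's most frequent low value, so reads were not recovered and no counting intervals are given; precision comes from the spread between libraries.

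Tests used limma 3.58.1 (R 4.3.3) on log2(value + pseudocount of 1 CPM, 17.6 in males and 17.8 in females) for genes that reached 0.5 CPM in 3 or more libraries, with a mean-variance trend, two-sided, adjusted by Benjamini-Hochberg at 0.05 over all genes. The paper names DESeq2, which needs counts and was not used here. Comparisons were mAS with mWT, fASht with fWT, and their difference. Genes named in full were the 2 members with the lowest male p in each role and those past the test for the difference, and of other lists up to 4 genes with the lowest male p. Some genes that this rule selects are not reported here. Members, lists and tests were chosen with earlier results of these data known. Fits were tested on simulated data. Alternatives were other pseudocounts, filters and scalings, a replicate term, all groups in 1 fit, a marker covariate, the supplement's thresholds (unadjusted p under 0.05, fold over 1.5), the repeated library kept and each library left out. Gene positions are from GENCODE M21 (GRCm38), promoters from RefSeq (GRCm38.p6). Protein sequences were not analysed here. Python 3.11.15 was used for tables and plots.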

Additional observations from a re-analysis of the deposited data

Results flagged for a closer look

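The male and the female change of 29 members differed by their own test (limma interaction of sex and genotype, adjusted p under 0.05), in groups of 3, 3, 2 and 3 libraries. Each difference is the male minus the female log2 fold change, with its SE and its adjusted p by limma. Sex and mutant dose (Col4a5-/- males, Col4a5+/- females) cannot be told apart in it. Among mitochondrial members it was -3.62 ± 0.72 (SE, adjusted p = 0.0199) for Acsm3, -2.12 ± 0.52 (SE, adjusted p = 0.0253) for Acsm2, -2.02 ± 0.54 (SE, adjusted p = 0.0292) for Acsm5, -1.54 ± 0.45 (SE, adjusted p = 0.0356) for Acsm1, -1.77 ± 0.35 (SE, adjusted p = 0.0196) for Hadh, -1.37 ± 0.31 (SE, adjusted p = 0.0226) for Acadm, -1.37 ± 0.33 (SE, adjusted p = 0.0250) for Etfa, -1.19 ± 0.38 (SE, adjusted p = 0.0447) for Echs1, -1.17 ± 0.30 (SE, adjusted p = 0.0278) for Acads and -1.14 ± 0.28 (SE, adjusted p = 0.0258) for Acaa2. It was -1.13 ± 0.25 (SE, adjusted p = 0.0221) for Etfdh, -1.09 ± 0.26 (SE, adjusted p = 0.0250) for Cpt2, -1.02 ± 0.27 (SE, adjusted p = 0.0303) for Etfb, -0.99 ± 0.31 (SE, adjusted p = 0.0433) for Acadvl, -0.91 ± 0.21 (SE, adjusted p = 0.0234) for Acadl, -0.79 ± 0.22 (SE, adjusted p = 0.0323) for Hadhb and -0.70 ± 0.18 (SE, adjusted p = 0.0275) for Hadha. Among peroxisomal members it was -2.08 ± 0.48 (SE, adjusted p = 0.0232) for Acox2, -2.01 ± 0.60 (SE, adjusted p = 0.0390) for Slc27a2, -1.95 ± 0.53 (SE, adjusted p = 0.0305) for Ehhadh, -1.34 ± 0.30 (SE, adjusted p = 0.0226) for Acox3, -1.08 ± 0.29 (SE, adjusted p = 0.0305) for Pex11a and -0.95 ± 0.28 (SE, adjusted p = 0.0364) for Crot. Among members of both organelles it was -1.19 ± 0.37 (SE, adjusted p = 0.0443) for Acad11, -0.99 ± 0.27 (SE, adjusted p = 0.0312) for Crat and -0.84 ± 0.24 (SE, adjusted p = 0.0339) for Ech1, and among the others -2.34 ± 0.52 (SE, adjusted p = 0.0225) for Acot12, -1.65 ± 0.47 (SE, adjusted p = 0.0350) for Fabp3 and -1.35 ± 0.29 (SE, adjusted p = 0.0217) for Cd36. The number of members past this test was 1 without mWT replicate 3, where 168 of 16465 genes were lower and 205 higher. Leaving out a fWT library leaves 1 library in that group. Acsm3 was 20.4 to 75.6 in the female libraries, close to the pseudocount of 17.8, which understates its female change. The mean log2 value of the proximal tubule markers differed by -2.15 between the male groups and by -0.18 between the female groups, and its part in these differences was not tested. Groups of 2 or 3 libraries were too small for a search for libraries that stand apart within a group.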

How the results depend on the processing

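Other pseudocounts, a filter at 2 CPM, quantile normalization and median-of-ratios scaling changed no call of the 43 male members and no call of the 29 members that differed between the sexes. With the tubule marker level as a covariate 0 male members were lower, 0 of them mitochondrial and 0 peroxisomal, the medians were 0.12 for all, -0.094 for mitochondrial and 0.14 for peroxisomal members, and the organelle gap was -0.12. The values that changed sign in that fit were 0.26 for Cpt1a, 0.043 for Crat, 0.52 for Acadvl, 0.12 for Acadm, 0.14 for Hadhb, 0.52 for Echs1, 0.24 for Eci1, 0.52 for Etfa, 0.37 for Etfdh, 0.010 for Acsm2, 0.41 for Acsm5, 0.28 for Acot1, 0.43 for Acot12, 0.65 for Ehhadh, 0.21 for Hsd17b4, 0.15 for Acaa1a, 0.86 for Acaa1b, 0.15 for Crot, 0.12 for Slc27a2, 0.10 for Pex11a, 0.28 for Acad11, 0.85 for Fabp3, 0.77 for Ppara, 1.45 for Ppargc1a and 0.27 for Pdk4. The adjusted p of these sign changes were 0.979 to 0.999 by limma, and the median standard error of all genes was 0.416 against 0.171. In males marker level and genotype cannot be told apart, so these signs decide nothing. In females that covariate gave 2 members lower and 10 higher, where 1283 of 15803 genes were lower and 1302 were higher. With equal column totals 11 mitochondrial members were lower in males, the medians were -0.70 for all, -0.52 for mitochondrial and -0.76 for peroxisomal members, Acaa1a was 0.29 and Eci2 0.060, and 1 member was higher in females, where the median of all genes was 0.12. With equal column totals 626 of 15803 genes were higher in females. With the supplement's thresholds 1 member was lower and 1 higher in females, against 335 and 1027 of 15803 genes. With the repeated library kept 2 were lower and 3 higher, against 1208 and 1309 of 15923 genes. With no filter on low values the difference between the sexes was past the test for 13 members, where 664 of 24813 genes were lower and 739 were higher. The causes were not tested.

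Leaving out each library in turn gave 24 to 40 members lower in males (14 to 21 mitochondrial, 7 to 9 peroxisomal), medians of -1.24 to -0.89 for all, -1.09 to -0.77 for mitochondrial and -1.35 to -0.97 for peroxisomal members, 0 to 1 lower and 0 to 8 higher members in females, female medians of -0.16 to 0.27 for all, -0.10 to 0.35 for mitochondrial and -0.20 to 0.15 for peroxisomal members, male organelle gaps of 0.17 to 0.28, female ones of 0.17 to 0.26, and 0 to 37 members for the difference. The upper ends of both female member counts came from the fit without fWT replicate 2, where calls over all genes rose in both directions as well. They are therefore no result about the members alone. The 0 for the difference came from the fit without fWT replicate 1, where calls over all genes fell as well. Each of these fits leaves 1 fWT library. A lone library left in a group was assumed to vary like the others.

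Whether the replicate numbers pair the samples could not be settled. Same-numbered libraries had deviations from their group means correlated at 0.048, 0.52 and 0.057 in males and 0.26 and -0.047 in females. Not every library correlated best with its own number. Deviations within a group sum to 0, so in groups of 2 or 3 libraries these correlations depend on each other and cannot decide it. The replicate block gave 39 members lower in males, 1 higher in females (Pdk4) and 7 for the difference. Over all genes it gave 3434 of 15881 lower in males and 645 of 15803 higher in females. For the difference 368 of 16506 genes were lower and 317 higher. Peroxisomal targeting signals and the identity of related proteins were not analysed here.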
